A study of Mus musculus with 6 samples.

Results

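Transcript abundance with guide sg5 was set against that with guide sg2 in mouse 32D cells, a myeloid progenitor line that grows in interleukin 3. The comparison uses 4 of the 6 libraries of the study, 2 for each guide, paired by their replicate number. Its genes are the protein-coding genes whose mean reached 1 FPKM (fragments per kilobase of transcript, scaled to the library's size) over these 4 libraries. That leaves 10563 of the 21958 protein-coding genes among the 47606 genes in the files. A further 11395 fell below the minimum, and 5981 of them were listed at 0 in all 4 libraries. Just inside lay Gatsl2, with a mean of 1.00 FPKM, and just outside lay the granule gene Olfm4, with 0.997 FPKM (1.41 and 1.75 with sg2, 0.346 and 0.487 with sg5).

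All cells carried dCas9-KRAB by lentivirus, were kept in 1 ng/mL interleukin 3, and passed through a week of puromycin. They differed in the guide: sg2, sg5, or none in the cells with the empty vector (EV). The labels do not say whether a library comes from a clone or a pooled culture, or which site each guide binds. The library whose title reads sg5, replicate 2, carries sg2 in its source name and genotype, so its title and its other labels conflict. It is counted as sg5 by its title. Every value below that rests on sg5 replicate 2 carries this conflict, and values within replicate number 1 do not.

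As background, dCas9 is a Cas9 protein that binds DNA where a guide directs it but does not cut. The KRAB domain fused to it recruits silencing factors that spread repressive histone marks. The study's title speaks of an enhancer of Cebpe, which encodes C/EBP epsilon, a transcription factor of late granulocyte development that activates genes of specific granules. Where a study uses more than 1 guide, setting the guides against each other shows which genes differ between cultures that all carry a guide. Anything else that differs between the cultures goes along with the guide. Granulocyte precursors make primary granule proteins such as myeloperoxidase and cathepsin G first, and specific granule proteins such as Ngp later.

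The 6 libraries held between 31200000 and 45100000 implied fragments, and between 21239 and 21867 genes lay above 0. Of the myeloid markers, Ptprc, the pan-leukocyte phosphatase gene, measured between 85.5 and 105 FPKM in the 4 guide libraries. Spi1, which encodes the myeloid factor PU.1, measured between 103 and 129 FPKM. Elane, the neutrophil elastase gene, was low at 1.40 to 2.5 FPKM, and the stem cell factor receptor gene Kit was listed at 0 throughout. The T cell marker Cd3e and the adult beta globin genes Hbb-bs and Hbb-bt were listed at 0 in all 6 libraries. RNAs under 200 nt took 9.0% and 21.5% of the summed FPKM in sg2 replicates 1 and 2, and 9.7% and 15.4% in sg5. The guides thus had close shares in number 1, and sg2 had the higher share in number 2.

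Libraries grouped by replicate number and, across numbers, not by guide. Distance here is the SD, over the 10563 genes, of the difference of 2 libraries in log2(FPKM + 1). It was 0.226 for sg2 and sg5 within number 1 and 0.244 within number 2. Between the numbers it was 0.603 for the 2 sg2 libraries and 0.560 for the 2 sg5 libraries. For unlike guides it was 0.562 for sg2 replicate 2 and sg5 replicate 1, and 0.611 for sg2 replicate 1 and sg5 replicate 2. All 9 pairs that cross the numbers lay between 0.556 and 0.630.

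**Figure D1:**
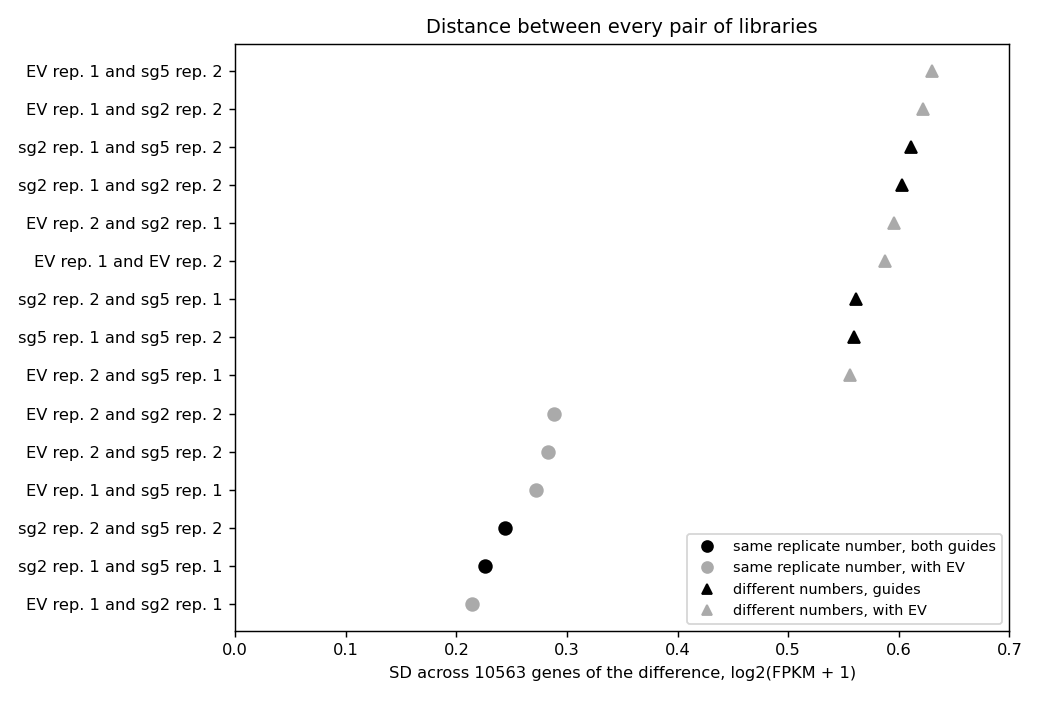
The horizontal axis gives the SD across 10563 genes of the difference between 2 libraries, in log2(FPKM + 1), and each row is 1 of the 15 pairs of libraries. Circles are pairs with the same replicate number and triangles pairs with different numbers, black where both libraries carry guides. The 6 pairs of the same number lie at 0.288 or less, and the sg2 and sg5 pair of number 2 lies at 0.244.

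The library titled sg5 replicate 2 stood close to sg2 replicate 2, about as close as the first sg5 library stood to the first sg2 library. Pearson's r across genes was 0.990 within number 2 and 0.992 within number 1, and 52 and 47 genes (0.492% and 0.445%) differed by over 1 log2 unit. The points of such a correlation are genes of 2 libraries and are no replicates. The EV library of number 2 lay further from both, at 0.288 from sg2 and 0.283 from sg5. In number 1 the order was another, with EV 0.215 from sg2 and 0.272 from sg5.

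The 2 libraries of number 2 differed by more than counting error. For genes with a single transcript, the spread between sg2 replicate 2 and sg5 replicate 2 was 3.37 times that expected from counting error of the implied fragments. It was 2.54 times for sg2 and sg5 in number 1 and 2.03 times for EV and sg2 in number 1, the lowest of the 15 pairs. The distance alone does not tell a second sg5 culture from a second sg2 culture, because no pair of separate libraries with the same guide shares a replicate number.

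Cebpe (ENSMUSG00000052435, GRCm38 chr14:54710360-54712174, minus strand) was slightly higher with sg5 than with sg2, without passing the test. It measured 14.4 and 18.7 FPKM in sg2 replicates 1 and 2, and 19.4 and 22.7 FPKM in sg5. The EV libraries held 42.0 and 100.4 FPKM. Both sg5 libraries lay above both sg2 libraries, and all 4 lay below EV. The difference of sg5 minus sg2 in log2(FPKM + 1) was 0.40 within number 1 and 0.26 within number 2. Its mean was 0.33 (SE 0.11), which did not pass over all genes (limma adjusted p = 0.562). The 95% interval of that difference, 0.08 to 0.58, lay above 0, at an unadjusted limma p of 0.0142. An exact two-sided permutation test over the 4 libraries gave p = 0.333, the smallest that this design allows. Around Cebpe, 17 of the 28 protein-coding genes within 300 kb were tested, with a median difference of -0.01 against -0.01 over all 10563 genes. None of the 17 was called by limma, where 0.114% of all tested genes were called. Among them 1 had an unadjusted limma p under 0.05 (5.88%, against 6.62% of all tested genes). That was Gm20521, a predicted gene, at 1.29 and 3.34 FPKM with sg2, against 0.385 and 0.809 FPKM with sg5. Acin1, a chromatin condensation factor gene nearby, was at 119 and 122 FPKM with sg2, against 115 and 114 FPKM with sg5.

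Over all tested genes, limma with the replicate number as a block called 12 genes at an adjusted p under 0.05, which is 0.114% of the genes. Of these, 8 were higher with sg5 (0.0757%) and 4 lower (0.0379%). An unadjusted p under 0.05 was found for 699 genes (6.62%), 276 higher and 423 lower. Both sg5 libraries lay on 1 side of both sg2 libraries for 1286 genes (12.2%), 9 of the 12 called genes among them. The calls depended on the fit. Without the replicate block 0 genes passed in limma, 30 had an unadjusted p under 0.05, and 8 of the 12 were among those. In a fit with EV and the block that left out sg2 replicate 1, sg2 replicate 2, sg5 replicate 1 or sg5 replicate 2, 0 genes passed each time, against 3 with all 6 libraries, Ngp and Xlr4b among them. In the fits that left out a library, all 12 kept their direction. The 12 were chosen for small p in guide libraries that these fits share, so this is no separate support. With size factors 44 genes passed, 24 higher and 20 lower (54.5% higher against 66.7% here).

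**Figure D2:**
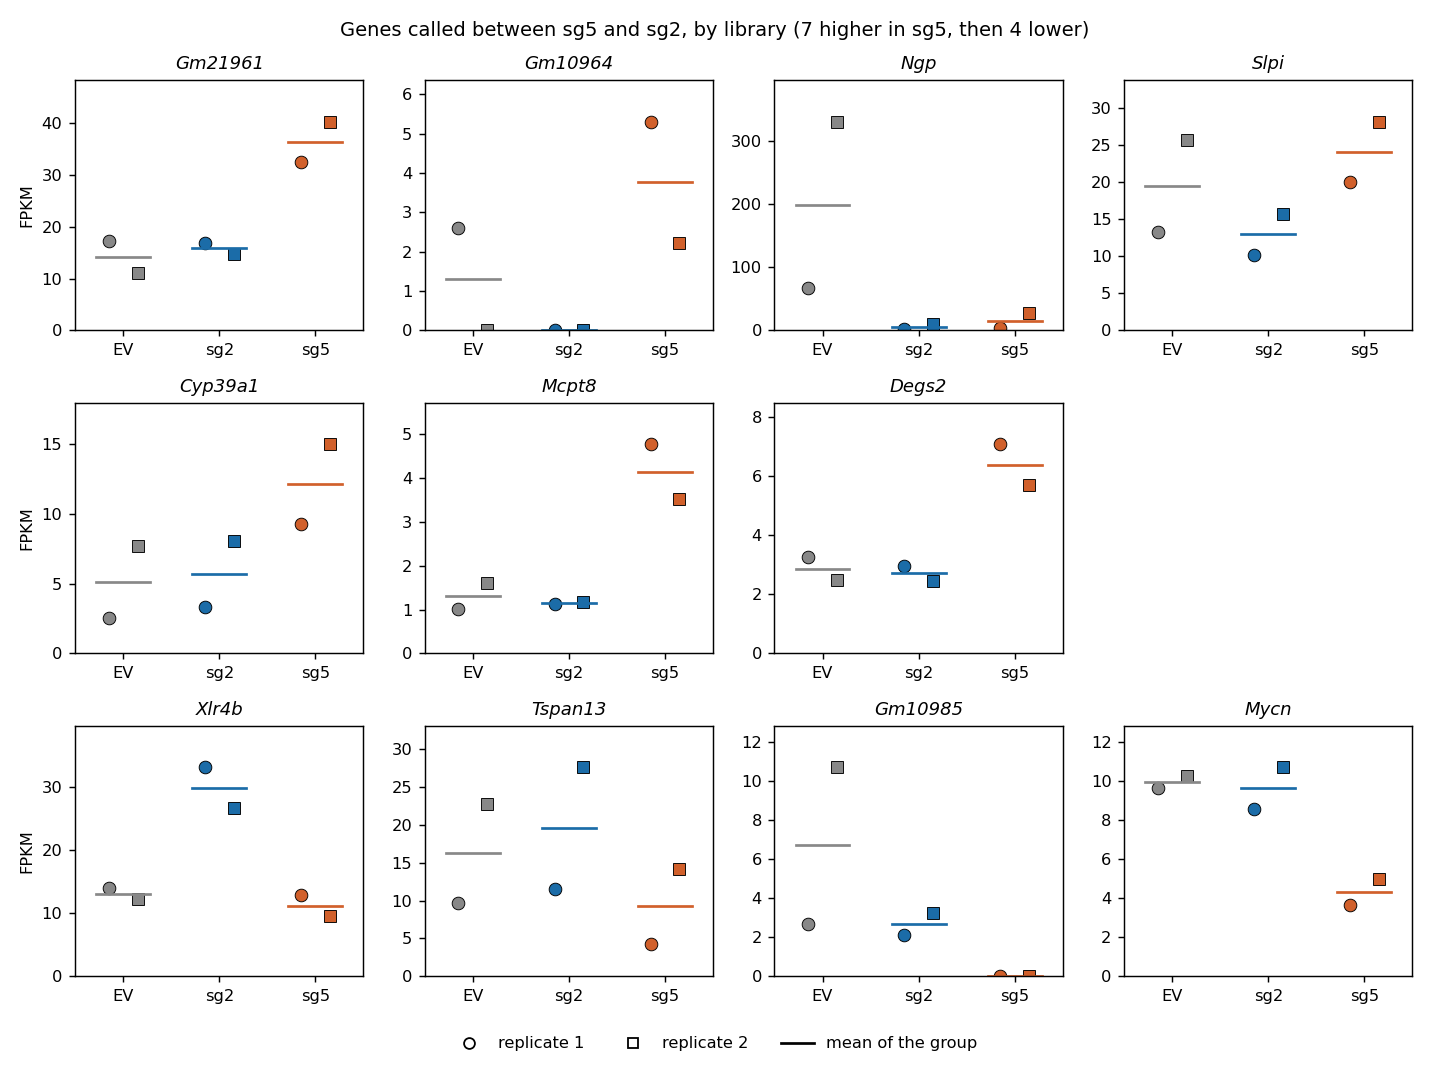
Each panel plots 1 of 11 called genes, with FPKM on the vertical axis from 0 and the 3 groups on the horizontal axis. Circles are replicate 1, squares replicate 2 and lines the mean of the 2 libraries. The top 2 rows hold 7 genes higher with sg5, such as Mcpt8 at 4.77 and 3.51 FPKM against 1.13 and 1.17 FPKM with sg2, and the bottom row the 4 lower genes.

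Genes made by neutrophils and basophils were among those higher with sg5. In these bulk samples fewer cells of a type and less RNA per cell cannot be told apart. Ngp, the gene of neutrophilic granule protein, was at 1.51 and 10.6 FPKM with sg2, at 3.79 and 27.0 FPKM with sg5, and at 67.7 and 331 FPKM with EV. The guide groups overlapped because number 2 ran higher in each group, but within each number sg5 was 2.51-fold and 2.54-fold above sg2. Both remained far below EV. The log2 difference was 1.10 (SE 0.14, limma adjusted p = 0.0261).

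Slpi encodes a secreted inhibitor of neutrophil serine proteases. It was at 10.2 and 15.7 FPKM with sg2, at 20.0 and 28.1 FPKM with sg5, and at 13.3 and 25.6 FPKM with EV. The sg5 libraries lay above both sg2 libraries and, number by number, above EV. Slpi differed by 0.85 log2 units (SE 0.11, limma adjusted p = 0.0280).

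The RefSeq promoters of these genes (GRCm38.p6, the 250 bases before the start, read 5′ to 3′ on the gene's strand) are shown because their windows held the C/EBP core TTGCNNAA, searched on both strands and printed in capitals. Of the 12 called genes 7 had a promoter in the table, and the windows of the other 5 did not hold these letters. Of the 12 named genes next in line by p, 10 had a promoter, and 1 of these held the core. That was Ppan, which was lower with sg5 in both numbers without passing. The core stands in 3142 of all 32851 promoters (9.56%). The matches begin 138 and 11 bases before the start of Ngp and 241 bases before that of Slpi.
Ngp, chr9:110419558-110419807, plus strand: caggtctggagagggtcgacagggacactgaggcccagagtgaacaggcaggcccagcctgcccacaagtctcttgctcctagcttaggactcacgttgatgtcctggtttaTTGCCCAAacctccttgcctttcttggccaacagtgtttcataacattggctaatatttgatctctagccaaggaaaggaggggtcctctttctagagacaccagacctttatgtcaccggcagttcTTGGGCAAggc
Slpi, chr2:164356508-164356757, minus strand: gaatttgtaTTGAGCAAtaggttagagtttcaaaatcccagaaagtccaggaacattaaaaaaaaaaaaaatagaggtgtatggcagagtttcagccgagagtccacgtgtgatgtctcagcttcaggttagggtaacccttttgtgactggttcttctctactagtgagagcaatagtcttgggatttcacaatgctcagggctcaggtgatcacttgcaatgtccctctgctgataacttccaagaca
A match is a run of letters and no measured binding site. The first match in Ngp reads the core on the printed strand, and the second match in Ngp and the match in Slpi read it on the opposite strand.

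Mcpt8, a serine protease gene of basophils, was at 1.13 and 1.17 FPKM with sg2, against 4.77 and 3.51 FPKM with sg5. EV held 1.01 and 1.61 FPKM, so the sg5 libraries stood above all 4 others. The log2 difference was 1.25 (SE 0.18, limma adjusted p = 0.0487). Mcpt8 and Ctsg, the cathepsin G gene of primary granules, lie 14.6 kb apart on chromosome 14, and Mcpt8 lies 1.37 Mb from Cebpe. Ctsg was at 30.5 and 40.2 FPKM with sg2, at 119 and 70.8 FPKM with sg5, and at 48.7 and 42.4 FPKM with EV. It had the same order of groups as Mcpt8 but did not pass (log2 difference 1.37, SE 0.21, limma adjusted p = 0.0763).

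A pair of lipid enzyme genes was also higher with sg5. Cyp39a1, an oxysterol hydroxylase of bile acid synthesis, was at 3.33 and 8.06 FPKM with sg2, against 9.25 and 15.0 FPKM with sg5. Degs2, a sphingolipid hydroxylase, was at 2.96 and 2.45 FPKM with sg2, against 7.07 and 5.69 FPKM with sg5. Neither group overlapped, and the log2 differences were 1.03 (SE 0.14, limma adjusted p = 0.0373) for Cyp39a1 and 0.99 (SE 0.14, 0.0487) for Degs2. With EV, Cyp39a1 was at 2.53 and 7.66 FPKM and Degs2 at 3.25 and 2.48 FPKM, both near sg2.

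Mycn, which encodes the growth-promoting transcription factor N-Myc, was lower with sg5. It was at 8.56 and 10.7 FPKM with sg2, at 3.66 and 5.0 FPKM with sg5, and at 9.66 and 10.3 FPKM with EV. Both sg5 libraries lay below all 4 others, at 0.428 and 0.467 of the sg2 library of their number. Mycn differed by -1.0 log2 units (SE 0.13, limma adjusted p = 0.0279). Among the other 11 tested genes of the Myc, Max and Mxd network 0 were called, where 0.114% of all tested genes were called. With Mycn, 4 of the network's 12 tested genes had an unadjusted limma p under 0.05 (33.3%, against 6.62% of all tested genes). Mxi1, which encodes a Max partner that opposes Myc, was at 15.4 and 19.2 FPKM with sg2, against 20.4 and 24.4 FPKM with sg5 (log2 difference 0.36, SE 0.11, limma adjusted p = 0.512).

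Tspan13, a tetraspanin membrane protein gene, was lower with sg5 in each number. It was at 11.5 and 27.6 FPKM with sg2, at 4.33 and 14.2 FPKM with sg5, and at 9.69 and 22.8 FPKM with EV. The guide groups overlapped, since number 2 ran higher in every group. The log2 difference was -1.08 (SE 0.12, limma adjusted p = 0.0210).

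Xlr4b, of the X-linked lymphocyte-regulated family, had the smallest p of all genes. It was at 33.1 and 26.7 FPKM with sg2, at 12.9 and 9.53 FPKM with sg5, and at 14.0 and 12.2 FPKM with EV. Here the sg2 libraries stood apart from the 4 others. Xlr4b differed by -1.35 log2 units (SE 0.11, limma adjusted p = 0.00500). Its near-identical copy Xlr4c was at 36.7 and 28.7 FPKM with sg2, against 29.7 and 33.8 FPKM with sg5, and Xlr4a was listed at 0 in all 6 libraries. Reads shared by these copies could have been split between them, so the value of Xlr4b is uncertain.

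A further 3 of the called genes are predicted genes with transcripts under 200 nt, for which a single fragment is worth more FPKM than for a longer transcript. Of all tested genes 20 are that short. Gm21961 (114 nt) was at 16.9 and 14.8 FPKM with sg2, against 32.6 and 40.3 FPKM with sg5. Gm10964 (120 nt) was listed at 0 in both sg2 libraries and at 5.31 and 2.22 FPKM with sg5. Gm10985 (81 nt) was listed at 2.13 and 3.26 FPKM with sg2 and at 0 in both sg5 libraries. Gm10964 and Gm10985 each reached the minimum mean only through the guide where it was above 0. The filter thus took part in choosing them, and their difference is no separate support. Gm10964 was also listed at 0 in EV replicate 2 and at 2.60 FPKM in EV replicate 1. On the log2(FPKM + 1) scale the differences were 1.15 (SE 0.13), 2.17 (SE 0.26) and -1.87 (SE 0.22), each with a limma adjusted p of 0.0210.

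EV took no part in the contrast and stood nearer to sg2 for 9 of the 12 called genes, by the mean distance within numbers, against 59.6% of all tested genes. It stood nearer to sg5 for Xlr4b, Ngp and Slpi.

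The genes next in line did not pass. Nkg7, a granule membrane protein gene of cytotoxic cells, was at 19.4 and 47.2 FPKM with sg2, against 40.3 and 71.5 FPKM with sg5. Olr1, a scavenger receptor gene, and Ppp4r4, a phosphatase subunit gene, also had positive differences within both numbers, of 0.93 and 0.72 on average. Bex6, of the Bex family, missed the threshold narrowly at a limma adjusted p of 0.0511, with 11.7 and 6.88 FPKM with sg2, against 6.05 and 3.23 FPKM with sg5. B230307C23Rik was at 86.0 and 76.7 FPKM with sg2, against 41.9 and 49.1 FPKM with sg5 (limma adjusted p = 0.0538). Ppan, a ribosome biogenesis gene, was at 27.1 and 18.8 FPKM with sg2, against 17.7 and 10.3 FPKM with sg5. Acy1, an aminoacylase gene, and Podnl1, a matrix protein gene, had mean differences of -0.65 and -0.70. Their limma adjusted p was 0.152 and 0.157.

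The guide difference in one number told little about the other over all genes. Between the numbers it correlated across the 10563 genes at r = 0.107 (Spearman's rho 0.0774), and 5542 genes (52.5%) had the same direction in both. The 2 differences share no library. Of the 25 genes at least 1 log2 unit higher with sg5 in number 1, 19 were higher in number 2, with a median there of 0.40. Of the 22 lower by as much in number 1, 10 were lower in number 2, with a median of 0.02. Starting from number 2, 10 of 19 higher genes and 21 of 33 lower genes had the same direction in number 1, with medians of 0.04 and -0.14.

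Only 4 genes differed by over 1 log2 unit the same way in both numbers: Xlr4b, Gm10964, Gm10985 and Mcpt8. Of these, Gm10964 and Gm10985 each reached the minimum mean only through the guide where it was above 0. A pair of genes differed by as much in opposite ways, among them Gm17604, a predicted gene. It went from 2.40 FPKM with sg2 to a listed 0 with sg5 in number 1, and from a listed 0 to 6.33 FPKM in number 2. The paired test selects genes with like differences in both numbers, so the place of the called genes in the plot of number 1 against number 2 is a description only.

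**Figure D3:**
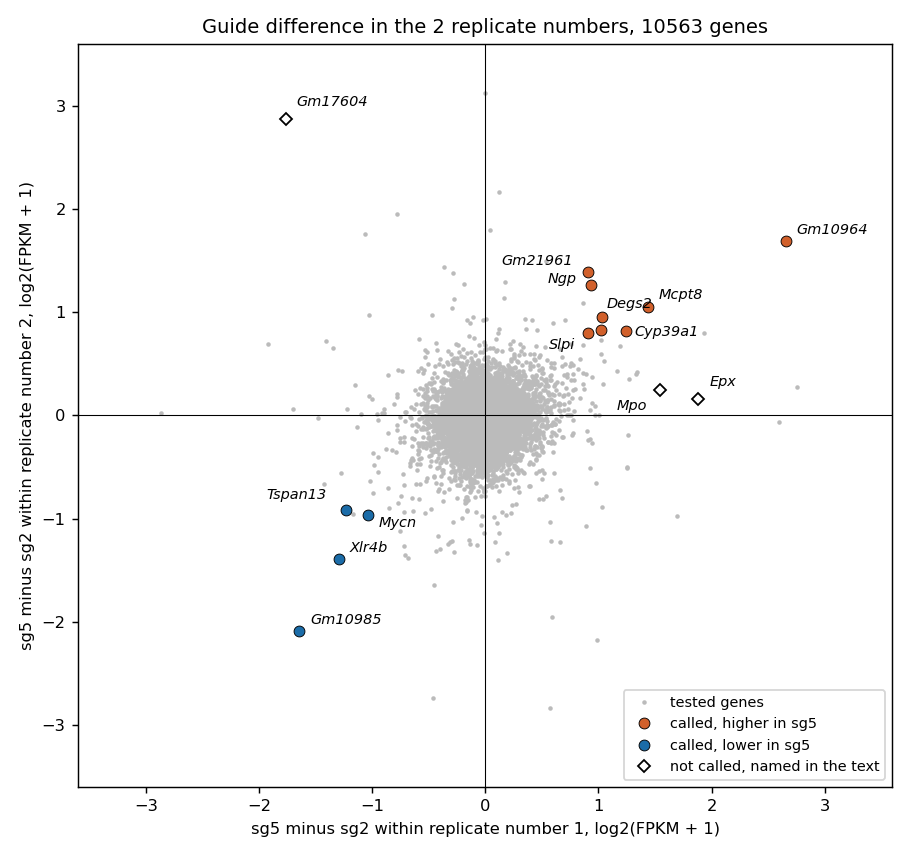
Each point is 1 of 10563 genes, with its sg5 minus sg2 difference in log2(FPKM + 1) within replicate number 1 on the horizontal axis and within number 2 on the vertical axis. Orange and blue circles are genes called higher and lower with sg5, and diamonds 3 genes that were not called. Mpo and Epx lie far to the right near the horizontal line, at 1.54 and 1.88 in number 1 against 0.24 and 0.16 in number 2.

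The peroxidase genes Mpo and Epx stood apart between the guides in number 1 and hardly in number 2. Mpo, the myeloperoxidase gene of primary granules, measured 41.5 FPKM with sg2 and 123 FPKM with sg5 in number 1, and 12.3 and 14.8 FPKM in number 2. Epx, which encodes the peroxidase of eosinophils, went from 8.77 FPKM with sg2 to 35.1 FPKM with sg5 in number 1, and from 55.1 to 61.6 FPKM in number 2. With EV, Mpo was at 151 FPKM in number 1, above both guides, and lay between the guides in number 2. Epx was at 75.5 and 253 FPKM with EV, above both guides in each number. The guide groups overlapped for both genes, and neither gene passed (limma adjusted p = 0.403 and 0.497). With sg5 replicate 2 counted as sg2, which leaves 1 sg5 library, the log2 difference was 1.54 for Mpo and 1.88 for Epx. It was 1.94 for Ctsg, 1.02 for Nkg7 and 1.26 for S100a9. These are the differences within number 1 alone, so that fit adds nothing to them. Prtn3, the proteinase 3 gene, measured 234 and 298 FPKM in number 1 and 372 and 300 FPKM in number 2, with opposite directions.

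**Figure D4:**
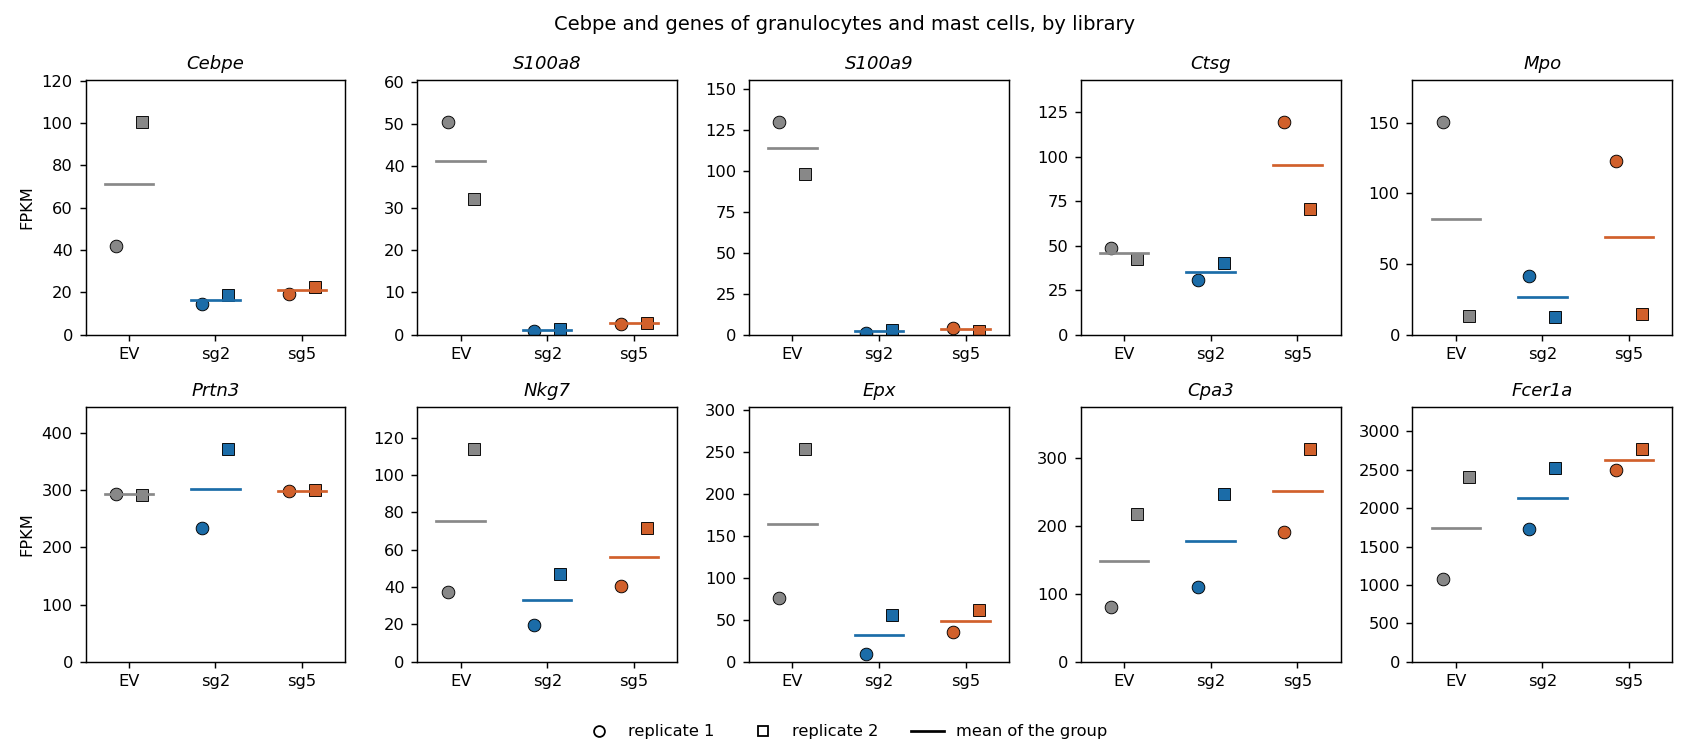
Each panel plots FPKM by group for Cebpe and 9 genes of granulocytes and mast cells, with circles for replicate 1, squares for replicate 2 and lines for the mean of the 2 libraries. S100a8 is near 0 with both guides, at 0.905 and 1.39 FPKM with sg2, against 2.47 and 2.83 FPKM with sg5, while the gap between guides for Mpo is seen in replicate 1.

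Of 11 tested genes of neutrophil specific and gelatinase granules, Ngp and Slpi were called higher with sg5 and 0 lower, where 0.0757% of all tested genes were called higher. The list's median difference was 0.09, being 0.23 in number 1 and -0.04 in number 2. Lcn2, the lipocalin gene, was at 150 and 114 FPKM with sg2, against 177 and 103 FPKM with sg5, so the numbers went opposite ways. Ltf, the lactoferrin gene, was at 0.927 and 2.44 FPKM with sg2, against 0.718 and 2.70 FPKM with sg5. Called genes and genes with no like direction thus stood in the same list. Without sg5 replicate 1 its median was -0.11.

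S100a8 and S100a9 encode the calprotectin subunits of neutrophils. S100a8 lay higher in both sg5 libraries, at the values given with the panels, with a log2 difference of 0.77 (SE 0.18, limma adjusted p = 0.302). S100a9 was at 1.07 and 2.97 FPKM with sg2, against 3.98 and 2.47 FPKM with sg5, with opposite directions in the 2 numbers. Among receptor, adhesion and oxidase genes, Csf3r, the receptor gene for granulocyte colony-stimulating factor, was at 7.47 and 8.73 FPKM with sg2, against 9.67 and 14.4 FPKM with sg5 (log2 difference 0.50, SE 0.13, limma adjusted p = 0.373). Of 23 primary granule genes 0 were called, against 0.114% of all tested genes, and the median was 0.05. An unadjusted limma p under 0.05 was found for 5 of them (21.7%, against 6.62% of all tested genes).

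Mast cell and basophil genes were mostly on the positive side, largely in number 1. Of 17 tested genes 14 had positive differences (82.4%, against 46.2% of all tested genes). Mcpt8 was the 1 called, where 0.0757% of all tested genes were called higher. The unadjusted limma p was under 0.05 for 7 of the 17 (41.2%, against 6.62% of all tested genes). The median was 0.53 in number 1 and 0.02 in number 2, and without sg5 replicate 1 it was -0.0030. Fcer1a, which encodes the IgE-binding chain of the high-affinity IgE receptor, was at 1733 and 2520 FPKM with sg2, against 2495 and 2767 FPKM with sg5. Cpa3, the mast cell carboxypeptidase gene, was at 110 and 247 FPKM with sg2, against 191 and 313 FPKM with sg5. Cd200r3, a basophil and mast cell receptor gene, was at 10.2 and 5.43 FPKM with sg2, against 18.2 and 8.03 FPKM with sg5. The limma adjusted p was 0.562, 0.258 and 0.206.

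The summed level of the 23 mast cell and basophil genes in the files was 3616 and 5566 FPKM with sg2, against 4915 and 5845 FPKM with sg5. Of them Mcpt4, a mast cell protease gene, was listed at 0 in all 4 guide libraries. The 10 eosinophil genes summed to 12.2 and 60.9 FPKM with sg2, against 41.3 and 67.8 FPKM with sg5, with Epx the highest of them in each. Of these 10, 4 were listed at 0 in all 4 libraries, and Prg2, the major basic protein gene, stayed at 0.240 FPKM or less. The 13 lymphoid markers summed to 29.9 and 55.0 FPKM with sg2, against 48.8 and 77.6 FPKM with sg5, most of it Nkg7. The part of other cell types in the called genes was not tested.

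Monocyte and red cell genes held no call, where 0.114% of all tested genes were called. Of 6 tested monocyte and macrophage markers 3 were positive and 3 negative in both numbers. The unadjusted limma p was under 0.05 for 3 of the 6 (50%, against 6.62% of all tested genes). Cd68, a macrophage lysosomal protein gene, was at 76.6 and 132 FPKM with sg2, against 52.1 and 114 FPKM with sg5, while Mpeg1, the macrophage perforin gene, was at 2.08 and 10.9 FPKM with sg2, against 4.71 and 14.7 FPKM with sg5. Of 10 tested erythroid and megakaryocyte markers 7 had negative differences, 4 of them in both numbers, and 2 were positive in both. An unadjusted limma p under 0.05 was found for 4 of the 10 (6.62% of all tested genes). The median of the 10 was -0.09, or 0.01 with sg5 replicate 2 counted as sg2. Pf4, the platelet factor 4 gene, was at 1.12 and 7.92 FPKM with sg2, against 2.78 and 9.06 FPKM with sg5. Klf1, an erythroid transcription factor gene, was at 9.19 and 4.02 FPKM with sg2, against 6.90 and 2.01 FPKM with sg5. Hba-a1, an alpha globin gene, was at 5.20 and 18.6 FPKM with sg2, against 3.52 and 5.28 FPKM with sg5. Klf1 and Hba-a1 were lower with sg5 in each number, without passing (limma adjusted p = 0.403 and 0.265).

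Of the 36 gene lists with at least 5 tested genes, 19 had medians of the same sign in both numbers, 8 positive and 11 negative. A list median carries no test here. Over all 10563 genes the median was -0.02 in number 1 and -0.01 in number 2.

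Ribosome biogenesis and RNA polymerase I genes were mostly on the negative side. Of 59 tested genes 54 had negative differences, against 53.8% of all tested genes. An unadjusted limma p under 0.05 was found for 15 of the 59 (6.62% of all tested genes), and 0 were called (0.114%). Their median was -0.33 in number 1 and -0.01 in number 2, so it came almost wholly from number 1, and without sg5 replicate 1 it was 0.02. Bop1, which encodes a factor of large ribosomal subunit assembly, was at 29.2 and 18.2 FPKM with sg2, against 19.6 and 14.5 FPKM with sg5. Nle1, another such factor, was at 13.5 and 15.1 FPKM with sg2, against 9.40 and 11.8 FPKM with sg5. The limma adjusted p was 0.403 and 0.453.

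Cytosolic and mitochondrial ribosomal protein genes had negative medians in both numbers. Of 82 tested cytosolic genes 60 were negative (median -0.08) and of 77 mitochondrial genes 62 (median -0.10), against 53.8% of all tested genes. In either list 0 were called, where 0.114% of all tested genes were called. The unadjusted limma p was under 0.05 for 5 cytosolic and 11 mitochondrial genes (6.1% and 14.3%, against 6.62% of all tested genes). Rpl36 was at 2914 and 2364 FPKM with sg2, against 2762 and 1688 FPKM with sg5. Mrps34 was at 32.9 and 25.2 FPKM with sg2, against 26.9 and 17.1 FPKM with sg5, and Mrpl34 70.4 and 55.8 against 59.0 and 39.9 FPKM.

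Of 87 nuclear-encoded genes of oxidative phosphorylation 69 were negative, against 53.8% of all tested genes, with a median of -0.07. Of the 87, 0 were called (0.114% of all tested genes) and 8 had an unadjusted limma p under 0.05 (9.2%, against 6.62%). Atp5g1, of the membrane part of ATP synthase, was at 183 and 71.6 FPKM with sg2, against 137 and 58.4 FPKM with sg5. Uqcr10, of the cytochrome bc complex, was at 304 and 178 FPKM with sg2, against 260 and 128 FPKM with sg5. Each was lower with sg5 in both numbers, and neither passed (limma adjusted p = 0.497 and 0.516).

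Glycolysis and hypoxia-responsive genes were on the positive side in both numbers. Of 38 tested genes 32 were positive (46.2% of all tested genes) and 0 were called (0.114%). An unadjusted limma p under 0.05 was found for 7 (18.4%, against 6.62% of all tested genes). The median was 0.12 in number 1 and 0.14 in number 2. Ero1l, an endoplasmic reticulum oxidase gene, was at 197 and 222 FPKM with sg2, against 266 and 323 FPKM with sg5. Bnip3, a hypoxia-responsive gene of mitophagy, was at 400 and 147 FPKM with sg2, against 477 and 222 FPKM with sg5. The limma adjusted p was 0.235 and 0.403.

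Mitosis genes and DNA replication genes had medians of opposite sign. Of 56 mitosis genes 41 were positive (46.2% of all tested genes), 33 of them in both numbers, with a median of 0.08. Of 56 DNA replication and nucleotide synthesis genes 43 were negative (53.8% of all), with a median of -0.09. None of either list was called by limma (0.114% of all tested genes). Respectively 0 and 5 had an unadjusted limma p under 0.05 (0% and 8.93%, against 6.62% of all tested genes). Mad2l1, a spindle checkpoint gene, was at 111 and 109 FPKM with sg2, against 121 and 129 FPKM with sg5. Spc25, a kinetochore gene, was at 75.1 and 73.3 FPKM with sg2, against 82.0 and 86.5 FPKM with sg5. Atic, a purine synthesis gene, was at 46.8 and 27.5 FPKM with sg2, against 29.5 and 22.2 FPKM with sg5. Of 34 replication-dependent histone genes, whose transcripts lack poly(A) tails and have near-identical copies, the median was 0.11 in number 1 and -0.33 in number 2. Hist1h2al, uncertain for its copies, was at 1.40 and 4.38 FPKM with sg2, against 0.469 and 1.11 FPKM with sg5.

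**Figure D5:**
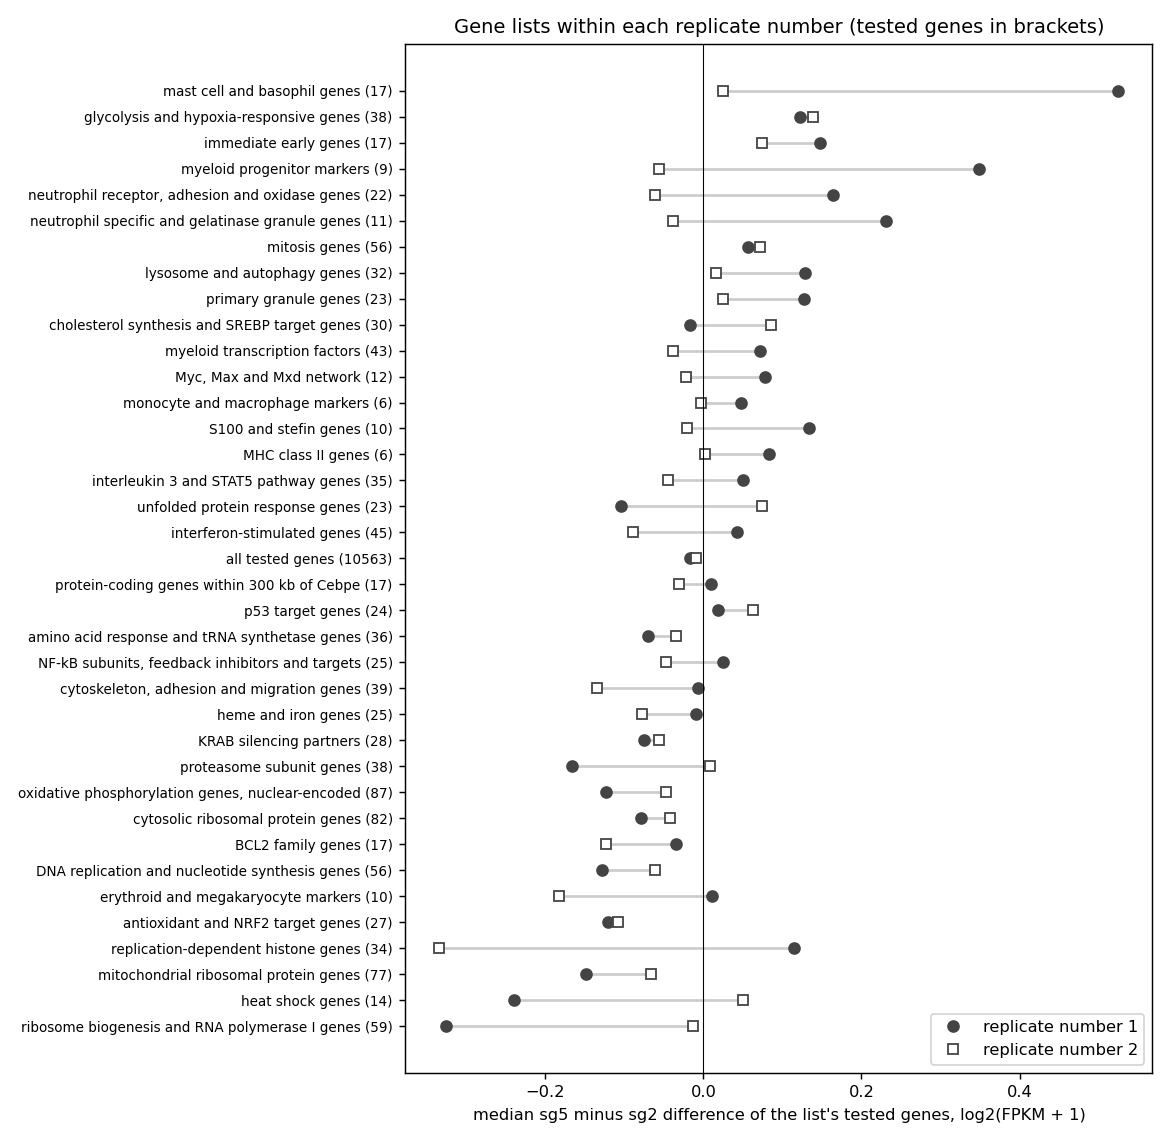
The horizontal axis gives the median sg5 minus sg2 difference, in log2(FPKM + 1), of the tested genes of each list, whose number stands in brackets. Filled circles are replicate number 1 and open squares number 2, joined by a line. Mitosis and glycolysis genes have both marks to the right of 0, while mast cell genes and ribosome biogenesis genes have 1 mark far out (0.53 and -0.33) and the other near 0.

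Genes that follow cytokine and stress signals held no call, where 0.114% of all tested genes were called. The unadjusted limma p was under 0.05 for 9 of 35 interleukin 3 and STAT5 pathway genes (25.7%). It was so for 4 of 36 amino acid response and tRNA synthetase genes (11.1%) and 2 of 25 heme and iron genes (8%). The share over all tested genes was 6.62%. Pim1, a kinase gene induced through STAT5, was at 146 and 201 FPKM with sg2, against 97.0 and 163 FPKM with sg5. Id1, which encodes an inhibitor of transcription factors, was at 51.1 and 47.9 FPKM with sg2, against 41.2 and 30.5 FPKM with sg5. Both were lower with sg5 in each number, at a limma adjusted p of 0.360. Ddit3, which encodes the stress factor CHOP, was at 19.9 and 28.3 FPKM with sg2, against 36.9 and 35.1 FPKM with sg5 (limma adjusted p = 0.314). The ferritin genes Fth1 and Ftl1, which encode the iron storage protein, measured 845 and 2351 FPKM, and 3496 and 5744 FPKM, with sg2. With sg5 they measured 739 and 1789 FPKM, and 3141 and 4468 FPKM, which is lower in each number without passing (limma adjusted p = 0.562 and 0.605).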

How the data were processed

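RNA was sequenced from 6 libraries of 32D cells, of which the 4 with guides were compared. The values are FPKM, 1 table per library, as deposited by the authors. Tools named in the submitters' processing notes are kallisto 0.43.0 and DESeq2, with the builds GRCm38 and mm10. The step that gave FPKM is not given in the sources used here. Gene positions are those of GENCODE M21 (build GRCm38), found by ID for 47187 genes, since the deposited position column puts every gene on chromosome 1.

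FPKM keeps no counts, so no count model was run. Values were taken as log2(FPKM + 1), which understates differences of lowly expressed genes. Guides were compared with limma 3.58.1 (R 4.3.3) with an intensity trend, the replicate number as a block and Benjamini-Hochberg adjustment at 0.05. It leaves 1 residual degree of freedom per gene, to which the prior adds 8.29. Tables and figures used Python 3.11.15 with matplotlib 3.10.9, scipy 1.17.1, pandas 2.3.3 and numpy 2.4.6. The fit was also run on values drawn from its own fitted model with known differences added. Such a draw cannot show faults of scaling or of labels. Implied fragments came from the lowest values of 752 single-transcript genes over 4000 nt, with an assumed fragment length of 200 nt, and 3 fragments at 1 kb were worth 0.0665 to 0.0962 FPKM (counting error alone).

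The numbers were taken to pair the libraries because the comparison was set that way. As a check, replicate 2 minus replicate 1 correlated across genes between sg2 and sg5 at r = 0.857 (rho 0.839). Nothing in the labels ties a number to a batch or day, or says that replicates are separate cultures. The p-values therefore measure the spread between these samples alone, and it may be technical.

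The members and the 38 gene lists were chosen with earlier results of these data known. Named genes were all that passed, filled to 12 in each direction by smallest p among differences of at least 0.5 in size and alike in both numbers. To these came up to 2 of smallest p per list, the genes within 300 kb of Cebpe, up to 8 with opposite directions in the 2 numbers, up to 5 in each direction of largest difference in number 2, and cell type markers. Several are given by counts only. Alternatives were another block, filter, pseudocount, scaling, prior or group for sg5 replicate 2, and leaving out each library. The values of 1 called gene, counted among the 12, are not reported here.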

Additional observations from a re-analysis of the deposited data

How the results depend on the processing

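The count of called genes, 12 with the replicate block, was 16 with a pseudocount of 5, 13 with a mean of at least 5 FPKM and 18 with a robust prior. It was 6 with a pseudocount of 0.1, 3 with all 6 libraries and the block, and 2 with a prior without the trend. With protein-coding genes rescaled to a common total it was 43 (27 higher, 16 lower) and with size factors 44, and all 12 were kept in both. It was 0 without the replicate block, without a filter on low values (881 genes at an unadjusted limma p under 0.05) and with all gene types (658). With sg5 replicate 2 counted as sg2, as its other labels have it, 31 genes passed, of which Cyp39a1 and Gm10964 were among the 12. That fit has 1 sg5 library and takes its spread from the 2 guide libraries of number 2, so it assumes that the lone library varies like these. Leaving out each library gave 0 throughout, in a fit that assumes that a lone library varies like the other groups. The cause of these changes was not tested.

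The SD between sg2 replicate 2 and sg5 replicate 2, 0.244, was 0.321 and 0.174 with pseudocounts of 0.1 and 5, 0.228 without a filter and 0.216 with a mean of at least 5 FPKM. It was 0.508 with all gene types and 0.267 with protein-coding genes rescaled. The difference of Cebpe ran from 0.04 to 0.62 when each library was left out. Of 38 lists 13 kept the sign of their median under every alternative.

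Among single genes, 778 of 964 recomputed values kept direction and side of the threshold, and 10 turned. Leaving out each library gave -0.020 to 0.68 for Fcer1a, -0.16 to 1.23 for S100a9, -1.39 to 2.5 for Gm17604 (-1.77 with sg5 replicate 2 counted as sg2), -0.27 to 0.36 for Lcn2, -0.18 to 0.12 for Ltf, and -0.31 to 0.35 for Prtn3. For a transcript of 1 kb, 3 fragments were worth 0.0665 to 0.0962 FPKM, and depth limits values near that level.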
